A study of Mus musculus with 18 samples.

Results

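The genes Dppa2, Dppa3, Dppa4, Dppa5a, Prdm14, Prdm1, Nr5a2, Utf1 and Sall4 were followed by RNA-Seq in mouse pluripotent cells kept with or without signaling inhibitors. They were chosen by name as the Dppa and Prdm genes and associated regulators of pluripotency, and the 9 were among 55469 genes measured. Their levels are given in FPKM, fragments per kilobase of transcript scaled to a common number of mapped fragments, a unit that takes account of gene length and can be compared between genes. The libraries numbered 18 in 9 groups.

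OSKM-ESCs came from a line of embryonic stem cells with a Tet-On-OSKM transgene and an Oct4-GFP reporter. These ESCs were moved from 2iL, which is N2B27 with the MEK inhibitor PD0325901, the GSK3 inhibitor CHIR99021 and LIF, to plain N2B27 with DOX, which switches on the transgenic Oct4, Sox2, Klf4 and c-Myc. 2iL-ESCs were the same line left in 2iL. Both were collected at days 18, 25 and 38, with 2 cultures each time, and the strain was a cross of (C57BL/6 x 129S4/SvJae)F1 with (CBA/CaJ X C57BL/6J)F2. OSKM-iPSCs (clone 1 at passage 7, clone 3 at passage 6), 2iL-iPSCs (clone 3 at passage 2, clone 6 at passage 3) and the MEF cells (2 libraries at passage 4, grown in DMEM with FBS) were (C57BL/6 x 129S4/SvJae)F1. All of these cells, the controls included, carried M2rtTA in Rosa26 and 1 polycistronic OSKM transgene in Col1a1. The pluripotent cells grew on mitomycin-c treated MEF feeder cells. The 2iL-iPSCs were grouped by their titles, since the labels list N2B27 with DOX as their daily medium whereas the methods describe 2iL with DOX withdrawn after picking. Passage and medium cannot be told apart in the iPSCs, the ESC comparison rests on 1 line, and no label says that the 2 cultures of a day had separate origins, so p-values measure the spread between these samples.

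DPPA2 and DPPA4 are SAP-domain chromatin proteins that work as a pair, bind GC-rich promoters and activate genes of the early embryo. DPPA3 (Stella) protects DNA from oxidation in the zygote and holds back UHRF1, the partner of the maintenance methyltransferase, and DPPA5A (ESG1) is an RNA-binding KH-domain protein of ESCs. PRDM14 and PRDM1 (BLIMP1) are zinc finger repressors that specify primordial germ cells, and PRDM14 also restrains FGF signaling and de novo methylation in ESCs. NR5A2 is an orphan nuclear receptor that acts at Oct4 regulatory DNA, UTF1 is a chromatin protein encoded by a target of OCT4 and SOX2, and SALL4 is a zinc finger factor that recruits the NuRD complex and supports Oct4 expression.

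Promoters of Nr5a2, Utf1 and Prdm1, 3 of the 9 genes, matched the RefSeq promoter table (GRCm38.p6). A pair is shown because Nr5a2 was lower and Utf1 higher in OSKM-ESCs. The Nr5a2 sequence is 250 bases before its outermost start (chr1:136960449-136960698, minus strand), and the Utf1 sequence is the 183 bases before its annotated first exon (chr7:139943606-139943788, plus strand). Capitals mark the GC box GGGCGG on either strand, a motif picked after the sequences had been seen.
Nr5a2: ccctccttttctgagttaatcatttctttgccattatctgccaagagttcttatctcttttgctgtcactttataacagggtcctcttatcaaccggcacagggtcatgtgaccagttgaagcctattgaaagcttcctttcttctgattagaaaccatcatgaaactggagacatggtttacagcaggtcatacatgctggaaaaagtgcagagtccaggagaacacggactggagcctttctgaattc
Utf1: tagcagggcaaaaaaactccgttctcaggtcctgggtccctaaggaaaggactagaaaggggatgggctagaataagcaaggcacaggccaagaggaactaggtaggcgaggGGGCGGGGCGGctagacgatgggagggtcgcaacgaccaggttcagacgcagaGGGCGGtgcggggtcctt
The 250 bases before the RefSeq start of Utf1, which run past the stretch shown, held 4 matches to GGGCGG, of which neighbouring matches could share a base. In the table, 32.7% of 32851 promoters of the same length held at least 1 match. The GC content was 61.6% for Utf1 with 14 CpG, 59.2% for Prdm1 with 15 CpG and 43.2% for the Nr5a2 start shown with 2 CpG, against medians of 52.4% and 6 CpG over all promoters. The other Nr5a2 start had 49.6% GC and 6 CpG. None of these 4 windows held the octamer ATGCAAAT (1.60% of promoters), the NR5A and ESRR element TCAAGGTCA (0.387%), the E-box CACGTG (6.02%) or the KLF element CCACACCC (3.20%), searched on both strands, which says only that these letters are not there.

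Depth was alike across libraries, at 16700000 to 20200000 read pairs as estimated from coverage and FPKM, and 11305 to 12097 genes had an FPKM over 1. The 5 pluripotency markers Pou5f1, Sox2, Nanog, Zfp42 and Esrrb summed to 818 to 1034 FPKM in OSKM-ESCs, 1323 to 1456 in 2iL-ESCs, 575 to 770.3 in OSKM-iPSCs and 1374 to 1572 in 2iL-iPSCs, and to 1.15 to 1.66 in MEF cells, although reads of the transgene may count for Pou5f1 and Sox2. The summed level of 10 fibroblast markers, as a share of that in MEF cells, was 1.17 to 2.34% in OSKM-ESCs, 0.248 to 0.409% in 2iL-ESCs, and 0.111 to 0.197% in 2iL-iPSCs. In OSKM-iPSCs it was 6.09% in clone 1 and 0.231% in clone 3, so clone 1 stood apart. Primitive endoderm markers (7 genes) summed to 2.68 to 10.1 FPKM in OSKM-ESCs and 0.651 to 2.22 in 2iL-ESCs, and primed epiblast markers (4 genes) to 168 to 413 and 49.6 to 113. Of the markers that passed the filter on low values, 6 of 7 fibroblast, 3 of 4 primitive endoderm and 4 of 4 primed epiblast markers were higher and 4 of 5 pluripotency markers were lower in OSKM-ESCs, although 4, 4 and 2 of these fibroblast, endoderm and epiblast markers passed it through OSKM-ESCs alone. In OSKM-iPSCs limma called 0 of 8 fibroblast markers (0 at an unadjusted p under 0.05), at a median log2 fold change of 1.53. Of these 8, 7 passed the filter through OSKM-iPSCs alone, and 3 and 4 of the 10 were listed at 0 in the 2iL-iPSC clones. Of the primed epiblast markers 3 of 4 were higher there, and 3 of the 4 passed the filter through OSKM-iPSCs alone. Of the pluripotency markers 2 of 5 were lower, and the 1 primitive endoderm marker tested was not called. In such bulk samples, fewer cells of a type and less RNA per cell cannot be told apart. The part of these other cell types in the differences below was not tested.

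**Figure D1:**
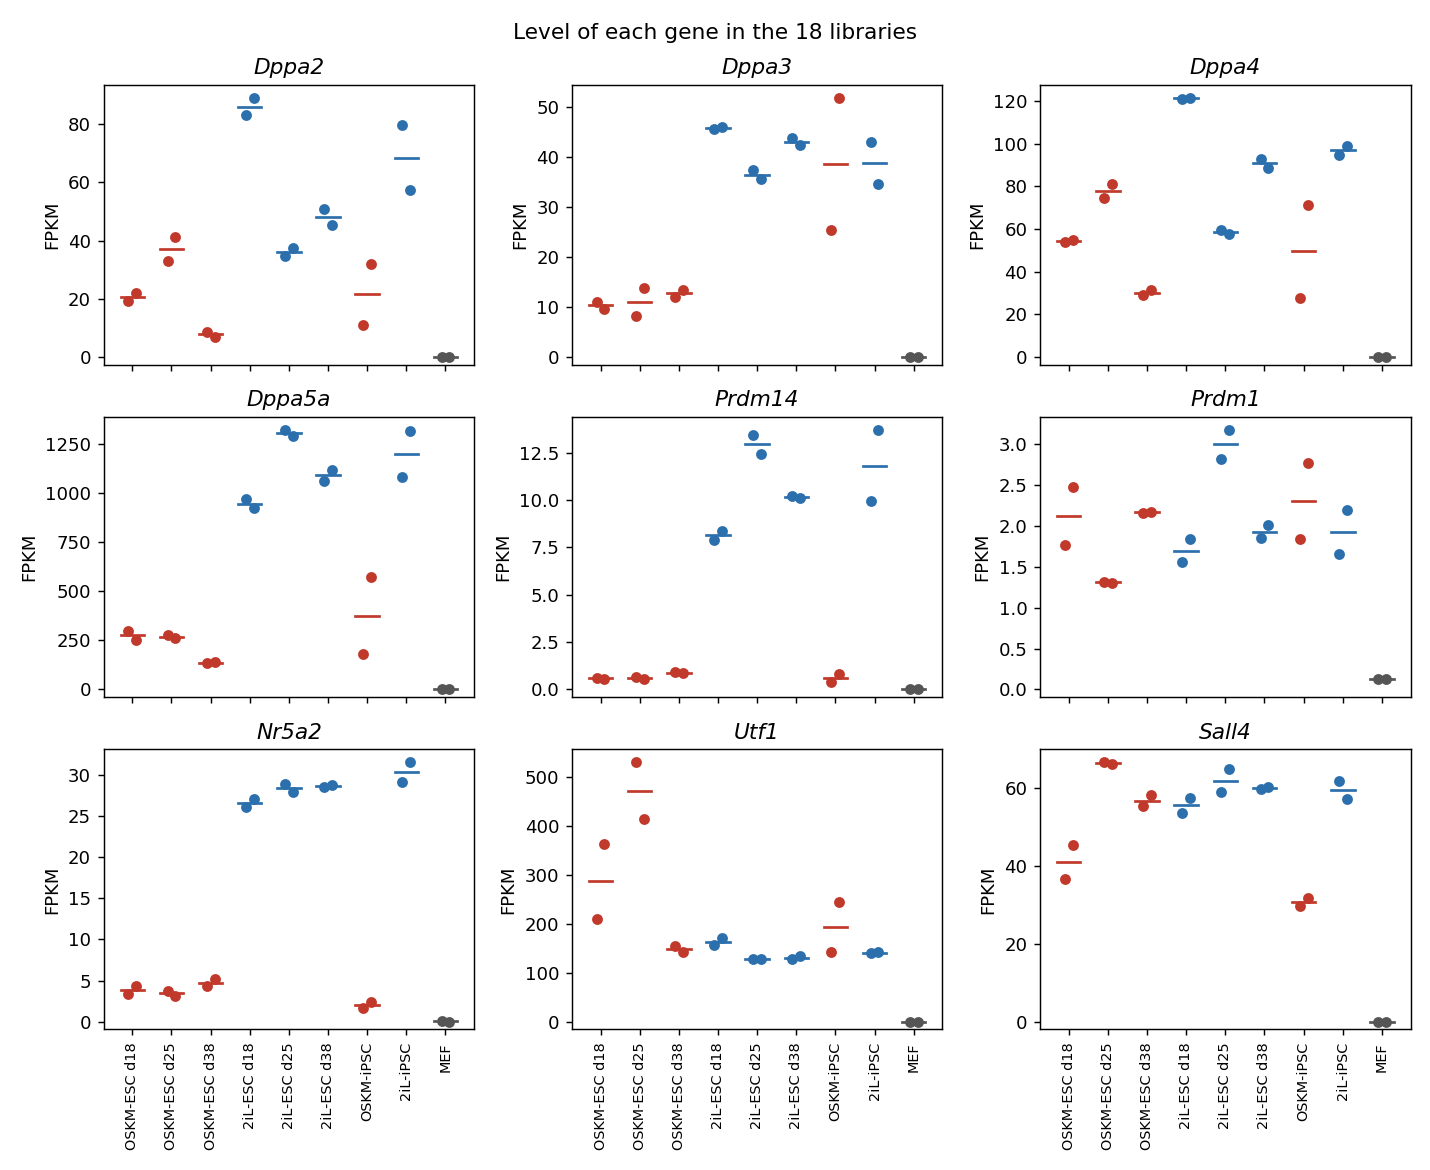
FPKM of each of the 9 genes (vertical axis, linear, one panel per gene) in the 18 libraries by group, where points are libraries, bars are group means, and red, blue and grey stand for OSKM, 2iL and MEF. In ESCs, the 6 OSKM libraries lie below the 6 2iL libraries for Dppa3, Dppa5a, Prdm14 and Nr5a2.

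The first comparison asked how these genes stood after the inhibitors and LIF were replaced by OSKM expression in ESCs. Over the 3 days, 6 genes were lower in OSKM-ESCs (Prdm14, Nr5a2, Dppa5a, Dppa3, Dppa2 and Dppa4), Utf1 was higher, and Prdm1 and Sall4 did not pass the test. Of all 14016 genes tested, 24.4% were lower and 29.5% higher at the same threshold, an adjusted p under 0.05. The fall was over 2-fold on the log2(FPKM + 1) scale in 5 of the 9, compared with 5.75% of all genes. The median log2 fold change over all genes was 0.03. OSKM and 2iL libraries did not overlap for 4 genes, Dppa3, Dppa5a, Prdm14 and Nr5a2, with all OSKM libraries the lower, as for 12% of all genes tested, and overlapped for the other 5. Prdm14 was under 1 FPKM in every OSKM-ESC library, which fixed its direction. Its call adds nothing to these counts.

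Prdm14 had the largest fall of the 9. Its FPKM in the OSKM-ESC cultures was 0.611 and 0.570 at day 18, 0.680 and 0.565 at day 25, and 0.916 and 0.853 at day 38. In 2iL-ESCs it was 7.91 and 8.37, 13.5 and 12.5, and 10.2 and 10.1 on the same days. Every OSKM-ESC library was thus below 1, every 2iL-ESC library was at 7.91 or more, and Prdm14 entered the test through its 2iL libraries, which fixed its direction. The mean was 0.699 ± 0.151 (SD, n = 6) in OSKM-ESCs, 6.70% of the 10.4 ± 2.19 (SD, n = 6) in 2iL-ESCs. The log2 fold change of -2.73 ± 0.11 (SE) is therefore given as a value only. The low level was still measurable, since the OSKM-ESC values stand for about 27 to 44 read pairs per library and the 2iL-ESC values for about 402 to 633.

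Nr5a2 was next. The OSKM-ESC cultures had 3.33 and 4.33 FPKM at day 18, 3.78 and 3.14 at day 25, and 4.37 and 5.13 at day 38. The 2iL-ESC cultures had 26.1 and 27.1, 28.9 and 27.9, and 28.5 and 28.8. The 2iL-ESC values varied by at most 1.11-fold and lay far above the OSKM-ESC values on each day. The OSKM-ESC mean of 4.01 ± 0.744 was 14.4% of the 2iL-ESC mean of 27.9 ± 1.09 (SD, n = 6 each). The log2 fold change was -2.54 ± 0.09 (SE, limma adjusted p = 1.3e-09). The exact permutation test within days gave p = 0.00926, the smallest it can give.

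Dppa5a was the most abundant of the 9 genes per length in 2iL-ESCs. It had 299 and 252 FPKM at day 18, 275 and 264 at day 25, and 133 and 138 at day 38 in OSKM-ESCs. In 2iL-ESCs it had 969 and 922, 1319.8 and 1291, and 1063 and 1118. The groups did not overlap, and the OSKM-ESC mean of 227 ± 72.3 was 20.4% of the 2iL-ESC mean of 1114 ± 164 (SD, n = 6 each). The log2 fold change was -2.35 ± 0.16 (SE, limma adjusted p = 2.0e-07; exact permutation p = 0.00926).

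Dppa3 in OSKM-ESCs stood at 22.6, 30.1 and 29.5% of the 2iL-ESC level on the 3 days. In OSKM-ESCs it had 11.02 and 9.64 FPKM at day 18, 8.20 and 13.8 at day 25, and 12.1 and 13.4 at day 38, and in 2iL-ESCs 45.6 and 46.0, 37.5 and 35.5, and 43.8 and 42.4. The lowest 2iL-ESC library was above the highest OSKM-ESC library. The means were 11.4 ± 2.17 and 41.8 ± 4.34 (SD, n = 6 each), a log2 fold change of -1.81 ± 0.11 (SE, limma adjusted p = 1.1e-07; exact permutation p = 0.00926).

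The genes of the paired factors, Dppa2 and Dppa4, were lower at the first and last day. Dppa2 in OSKM-ESCs had 19.3 and 22.2 FPKM at day 18, 32.8 and 41.1 at day 25, and 8.72 and 7.03 at day 38. In 2iL-ESCs Dppa2 had 83.0 and 89.0, 34.7 and 37.5, and 50.8 and 45.5. At days 18 and 38 the OSKM-ESC cultures were below the 2iL-ESC cultures, and at day 25 the ranges overlapped. Dppa4 in OSKM-ESCs had 54.1 and 54.8 FPKM at day 18, 74.7 and 81.0 at day 25, and 29.0 and 31.4 at day 38. In 2iL-ESCs Dppa4 had 121 in both cultures at day 18, 59.7 and 57.5 at day 25, and 92.9 and 88.6 at day 38. Here too the OSKM-ESC cultures were low at days 18 and 38, but at day 25 they were above both 2iL-ESC cultures.

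Over all days the log2 fold change of Dppa2 was -1.48 ± 0.33 (SE, limma adjusted p = 0.0022; exact permutation p = 0.037) and that of Dppa4 was -0.76 ± 0.25 (SE, limma adjusted p = 0.022; exact permutation p = 0.0556). The Dppa4 call did not hold without any single one of the 4 day 38 libraries, with adjusted p-values of 0.0546 to 0.0561.

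Utf1 was the one gene of the 9 higher in OSKM-ESCs. Its OSKM-ESC values were 210.3 and 363 FPKM at day 18, 529 and 414 at day 25, and 155 and 143 at day 38. The 2iL-ESC values were 156 and 170.0, then 128 in both cultures at day 25, and 128 and 133 at day 38. On each day both OSKM-ESC cultures were above both 2iL-ESC cultures, although the day 38 OSKM-ESC values lay below the 2iL-ESC values of day 18. The mean was 302 ± 157 in OSKM-ESCs and 140.4 ± 18.1 in 2iL-ESCs (SD, n = 6 each), with a log2 fold change of 0.94 ± 0.23 (SE, limma adjusted p = 0.0048; exact permutation p = 0.00926). The replicate cultures of day 18 differed by 1.73-fold, the widest gap between replicate cultures of any of the 9 genes.

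Prdm1 and Sall4 did not pass over all days. Prdm1 was low in all pluripotent cells, with 1.30 to 2.48 FPKM in OSKM-ESCs (median 1.96) and 1.56 to 3.18 in 2iL-ESCs (median 1.93). Its log2 fold change was -0.16 (95% interval -0.50 to 0.18, limma adjusted p = 0.42; exact permutation p = 0.324). Sall4 had 36.7 to 66.6 FPKM in OSKM-ESCs (median 56.8) and 53.6 to 64.9 in 2iL-ESCs (median 59.4). Its log2 fold change was -0.14 (95% interval -0.33 to 0.06, limma adjusted p = 0.21; exact permutation p = 0.194). Both genes overlapped between media, and these intervals bound the difference without showing that the levels were the same.

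The single days share their libraries with the comparison over all days. On each day Prdm14 entered through its 2iL-ESC libraries alone, so its call adds nothing to the counts of lower genes. At day 18, 7 of the 9 were lower and Utf1 was higher, against 17.7% and 25.7% of all genes. At day 25, 5 were lower (Prdm14, Nr5a2, Dppa5a, Dppa3 and Prdm1) and 2 higher (Utf1 and Dppa4), against 25.3% and 20.7%. At day 38, 6 were lower and Utf1 was higher, against 25.2% and 34.6%. Median-ratio scaling moved the median log2 fold change of all genes from 0.07 to -0.05 at day 18, with 2696 genes higher and 2929 lower in place of 3285 and 2261. At day 38 it moved it from 0.07 to -0.03, with 3745 higher and 4207 lower in place of 4551 and 3314.

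The difference between media itself changed with the day for 7 of the 9 genes (limma F test of the interaction), against 37.9% of all genes. For Dppa4 the log2 fold change was -1.14 ± 0.10 (SE) at day 18, 0.40 ± 0.09 at day 25 and -1.56 ± 0.06 at day 38 (interaction adjusted p = 4.1e-06). The call of day 25 was lost without either 2iL-ESC culture of that day (adjusted p = 0.133 and 0.173) and with all 9 conditions in a single fit (adjusted p = 0.283). For Dppa2 it was -2.004 ± 0.12, 0.03 ± 0.13 and -2.47 ± 0.11 (adjusted p = 3.2e-05), and the day 25 value turned to -0.13 without OSKM-ESC replicate 2 and to -0.03 without 2iL-ESC replicate 1 of that day. Both genes thus fell well below 2iL-ESCs at the first and last days and not at day 25, where the OSKM-ESC values were at their highest and the 2iL-ESC values at their lowest. The difference of Dppa5a grew with the day, with log2 fold changes of -1.78 ± 0.13, -2.27 ± 0.07 and -2.998 ± 0.04 (adjusted p = 0.00022, and 0.237 with all 9 conditions in a single fit). From day 18 to day 25 its OSKM-ESC mean changed little (276 and 269 FPKM), while the 2iL-ESC mean rose from 945 to 1305. At day 38 the means were 136 and 1091, and the OSKM-ESC level was 12.4% of that in 2iL-ESCs.

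Utf1 peaked in its difference at day 25, with log2 fold changes of 0.76 ± 0.25, 1.87 ± 0.13 and 0.19 ± 0.05 (SE, interaction adjusted p = 0.0053). The day 25 level was 3.69 times that of 2iL-ESCs and the day 38 level 1.14 times. The calls of day 18 (adjusted p = 0.045) and day 38 (adjusted p = 0.031) were weak. Without OSKM-ESC replicate 2 the day 18 value was 0.37 (adjusted p = 0.0896), and it missed the threshold without either 2iL-ESC culture as well (adjusted p = 0.217 and 0.284). The day 38 call was lost without OSKM-ESC replicate 1 or without either 2iL-ESC culture (adjusted p = 0.0893 to 0.168), and with median-ratio scaling, where the value was 0.08 (adjusted p = 0.355).

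Prdm14 differed most at day 25, with -3.11 ± 0.12, compared with -2.52 ± 0.13 at day 18 and -2.57 ± 0.09 at day 38. Its means at days 18, 25 and 38 were 0.590, 0.623 and 0.885 FPKM in OSKM-ESCs and 8.14, 13.0 and 10.2 in 2iL-ESCs. At day 25 the 2iL-ESC mean was thus at its highest and the OSKM-ESC mean was not at its lowest. The interaction (limma F test) had an adjusted p of 0.0095. That interaction was lost without 2iL-ESC replicate 1 of day 25 (adjusted p = 0.0515) and with all 9 conditions in a single fit (adjusted p = 0.124). Prdm1 was lower in OSKM-ESCs at day 25, by -0.79 ± 0.13 (adjusted p = 0.0057). At days 18 and 38 its values of 0.20 (adjusted p = 0.37) and 0.11 (adjusted p = 0.38) did not pass, the latter turning to -0.08 with quantile normalization, and the interaction had an adjusted p of 0.0034. The day 25 call of Prdm1 was lost without 2iL-ESC replicate 2 of that day (adjusted p = 0.0527). Sall4 was lower at day 18, by -0.44 ± 0.13 (adjusted p = 0.04), with 36.7 and 45.4 FPKM against 53.6 and 57.5. At day 25 it had 66.6 and 66.2 against 58.9 and 64.9, and at day 38 55.3 and 58.2 against 59.8 and 60.2, neither of which passed (interaction adjusted p = 0.031). The Sall4 call of day 18 was lost when OSKM-ESC replicate 1 or either 2iL-ESC culture was left out (adjusted p = 0.119 to 0.218), and its interaction when any of 9 of the 12 libraries was (adjusted p = 0.0503 to 0.099). The interactions of Dppa3 (adjusted p = 0.40) and Nr5a2 (adjusted p = 0.24) did not pass the test, but that of Dppa3 passed without OSKM-ESC replicate 1 of day 25 (adjusted p = 0.00935).

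**Figure D2:**
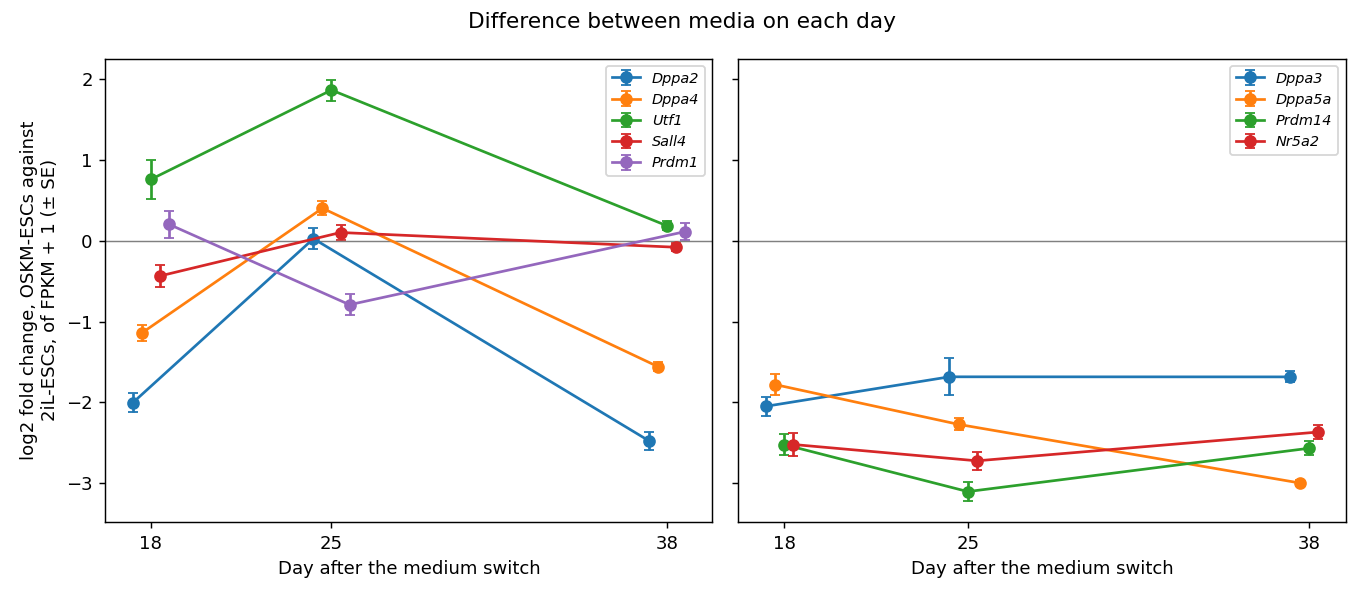
log2 fold change of OSKM-ESCs against 2iL-ESCs on the log2(FPKM + 1) scale (vertical axis) by day after the switch of medium (horizontal axis), with bars of 1 SE from limma and 2 cultures per medium and day. The left panel holds the 5 genes whose media overlapped over all days, with Dppa2, Dppa4 and Utf1 peaking at day 25, and the right panel the 4 that did not overlap, which stay between -1.68 and -3.11.

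Within each medium the days were also compared. In OSKM-ESCs, 5 of the 8 genes that could be tested differed between days (Dppa2, Dppa4, Dppa5a, Utf1 and Sall4), against 38.6% of all genes. Prdm14 was below 1 FPKM in all 6 libraries there and was not tested. Dppa3 did not pass there (adjusted p = 0.49) but did without replicate 2 of day 25 (adjusted p = 0.0422). In 2iL-ESCs, where no medium had been changed, 7 of the 9 genes differed between days (all but Nr5a2 and Sall4), against 50.8%. With all 9 conditions in a single fit, Dppa3 (adjusted p = 0.662), Dppa5a (0.654) and Utf1 (0.507) did not pass. Dppa2 in 2iL-ESCs spanned 2.57-fold between its lowest and highest library and Dppa4 2.11-fold, so the control cultures differed between days too. Time in culture and the collection of each day cannot be told apart. For Dppa2 the adjusted p of the days was 0.00043 in 2iL-ESCs and 0.00054 in OSKM-ESCs, and for Dppa4 0.00024 and 0.0006.

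The second comparison asked whether the media separated the iPSC clones in the same way. In OSKM-iPSCs, 3 of the 9 genes were lower than in 2iL-iPSCs, Nr5a2, Prdm14 and Sall4, against 2.96% of 13653 genes tested. Nr5a2 and Prdm14 were lower by over 2-fold on the log2(FPKM + 1) scale, against 2.53% of all genes. Prdm14 was under 1 FPKM in both OSKM-iPSC clones and entered the test through its 2iL clones, which fixed its direction, so its call adds nothing to these counts. The other 6 did not pass. With median-ratio scaling the median of all genes moved from 0.09 to -0.03, with 554 genes higher and 550 lower in place of 683 and 404.

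Nr5a2 had 1.66 and 2.44 FPKM in OSKM-iPSC clones 1 and 3 and 29.1 and 31.5 in 2iL-iPSC clones 3 and 6. Its log2 fold change was -3.37 ± 0.21 (SE, limma adjusted p = 0.0064), and the OSKM-iPSC mean was 6.77% of the 2iL-iPSC mean. Prdm14 had 0.382 and 0.841 FPKM against 9.94 and 13.7, a log2 fold change of -2.99 ± 0.28 (SE) that is given as a value only. Sall4 had 29.7 and 31.7 FPKM against 61.9 and 57.2, a log2 fold change of -0.93 ± 0.14 (limma adjusted p = 0.028). For these 3 genes both OSKM-iPSC clones were below both 2iL-iPSC clones, as for 25.4% of all genes tested. All 3 calls were lost when either 2iL-iPSC clone was left out (limma adjusted p = 0.318 to 0.323, with unadjusted p under 0.05 for all 3), and that of Sall4 also without OSKM-iPSC clone 1 (adjusted p = 0.0567).

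For the Dppa genes the OSKM-iPSC clones differed from each other. Dppa2 had 10.99 FPKM in clone 1 and 32.0 in clone 3, against 79.6 and 57.2 in 2iL-iPSCs. Dppa4 had 27.8 and 71.3, against 94.8 and 99.0. Dppa5a had 178 and 575, against 1083 and 1314. For all 3 genes both OSKM clones thus lay under both 2iL clones, but the log2 fold changes of -1.78 (95% interval -2.98 to -0.58, adjusted p = 0.08), -1.10 (-2.15 to -0.05, adjusted p = 0.16) and -1.89 (-3.21 to -0.58, adjusted p = 0.085) did not pass. Without OSKM-iPSC clone 3 they were -2.51, -1.76 and -2.74, and without clone 1 they were -1.05, -0.44 and -1.05. Their size thus depended on which clone was kept. Dppa3 had 25.5 FPKM in clone 1 and 51.8 in clone 3, on either side of the 43.1 and 34.6 of the 2iL-iPSCs, with a log2 fold change of -0.08 (95% interval -0.94 to 0.77, adjusted p = 0.89) that turned to 0.42 without clone 1 and to 0.07 without 2iL-iPSC clone 3.

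Clone 3 was above clone 1 for all 9 genes, whereas 49.3% of 12874 genes with an FPKM over 1 in either clone were. The ratio ran from 1.07 for Sall4 to 3.23 for Dppa5a. Clone 1 was also the library with the high fibroblast marker level. Its primitive endoderm markers summed to 9.01 FPKM, against 1.499 in clone 3 and 1.44 to 1.87 in 2iL-iPSCs, and its primed epiblast markers to 163, against 260.0 in clone 3 and 79.7 to 89.4 in 2iL-iPSCs. The part of those cells in the difference between the clones was not tested. Utf1 had 142 FPKM in clone 1 and 244 in clone 3, against 140.2 and 142 in 2iL-iPSCs (log2 fold change 0.40, 95% interval -0.27 to 1.06, adjusted p = 0.36). Prdm1 had 1.84 and 2.77 FPKM against 1.66 and 2.19 (0.17, 95% interval -0.53 to 0.87, adjusted p = 0.72), a sign that turned with quantile normalization (-0.02) and without clone 3 (-0.04).

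**Figure D3:**
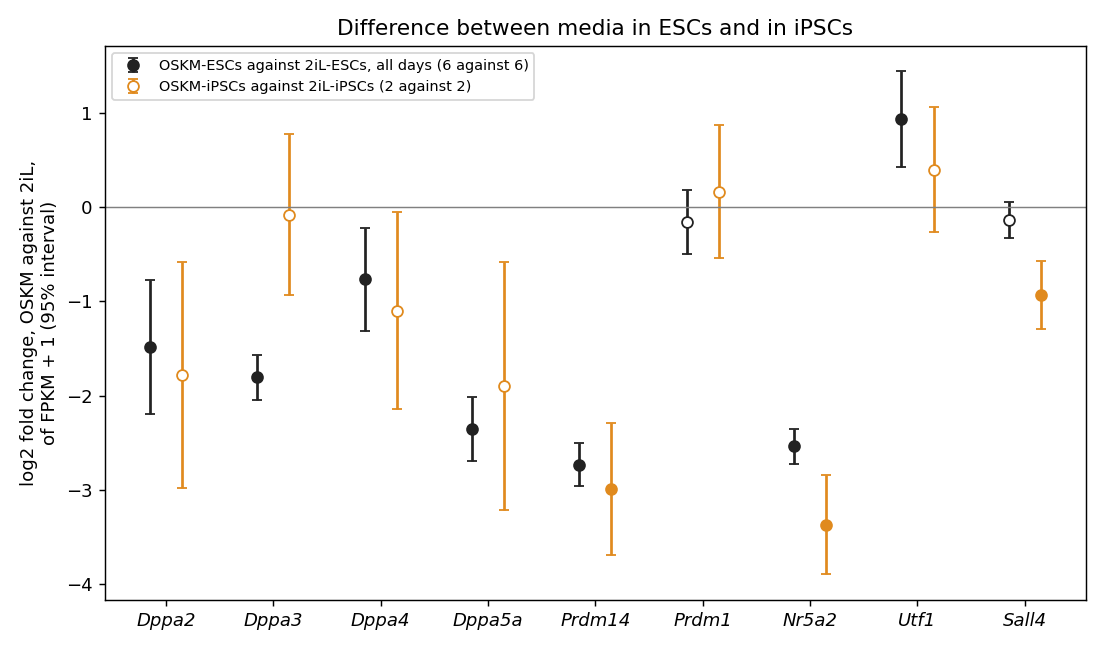
log2 fold change of OSKM against 2iL on the log2(FPKM + 1) scale (vertical axis) for each gene (horizontal axis), in ESCs over all days (black, 6 libraries against 6) and in iPSCs (orange, 2 against 2), where bars are 95% intervals from limma and filled points passed an adjusted p of 0.05. Dppa3 lies at -1.81 in ESCs and -0.08 in iPSCs, and the intervals of iPSCs are wider.

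The difference between iPSCs and ESCs in the effect of medium was itself tested. It passed for 3 of the 9 genes, against 14.2% of 14621 genes. For Dppa3 the iPSC effect was higher than the ESC effect by 1.72 ± 0.32 (SE, limma adjusted p = 0.0057). For Nr5a2 it was lower, by -0.83 ± 0.17 (adjusted p = 0.0081), and for Sall4 by -0.79 ± 0.12 (adjusted p = 0.0017). For Prdm14 the difference of -0.26 (95% interval -0.67 to 0.15, adjusted p = 0.39) did not pass. Cell type cannot be told apart from strain here, as the iPSCs and ESCs differed in both. Without OSKM-iPSC clone 1, 5 of the genes passed, with Dppa2 and Dppa4 turning from -0.30 and -0.33 to 0.43 (adjusted p = 0.19) and 0.33 (adjusted p = 0.0301). Without OSKM-iPSC clone 3, 6 passed, with Dppa5a turning from 0.46 to -0.39 (adjusted p = 0.0687).

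In MEF cells the genes were nearly silent. Dppa2, Dppa3, Dppa4, Prdm14, Utf1 and Sall4 were listed at 0 in both libraries, Dppa5a at 0 and 0.404 FPKM, and Nr5a2 at 0.0481 and 0, the last 2 values resting on about 4 read pairs each. Prdm1 was at 0.124 and 0.130. Against MEF cells, Prdm1 entered the test through the iPSC clones alone, which fixed its direction. Its log2 fold changes of 1.54 ± 0.22 (SE) in OSKM-iPSCs and 1.37 ± 0.16 in 2iL-iPSCs are therefore given as values only. Of all genes tested, 34.0% and 40.6% were higher than in MEF cells, and the calls of Prdm1 add nothing to a comparison with these shares. Without MEF library 1 or 2 its values in OSKM-iPSCs were 1.53 and 1.54. Of related genes, Dppa1 and the pseudogene Dppa3-ps reached at most 0.116 and 0.112 FPKM in any library, and Dppa5b and Dppa5c were listed at 0 in all 18. As only uniquely mapped reads were kept, copies close in sequence may lose reads.

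By level, the order in 2iL-ESCs was Dppa5a (1114 FPKM), Utf1 (140.4), Dppa4 (90.2), Sall4 (59.2), Dppa2 (56.7), Dppa3 (41.8), Nr5a2 (27.9), Prdm14 (10.4) and Prdm1 (2.21). Sall4 and Dppa2 lay within their spread of each other (SD 3.67 and 23.4). In OSKM-ESCs Utf1 came first at 302 FPKM and Dppa5a second at 227, a gap within the SD of 157 of Utf1. Sall4 (54.7) and Dppa4 (54.2) could not be ordered there, and Prdm14 fell below Prdm1 (0.699 and 1.87).

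The genomic neighbours Dppa4 (chr16:48283733-48294237) and Dppa2 (chr16:48303908-48319723), both on the plus strand of GRCm38, lie 9.67 kb apart. As a description, the Pearson r of log2(FPKM + 1) over the 16 ESC and iPSC libraries was 0.965 between them, the highest for either gene among 12059 genes. These libraries fall into groups by medium, but the pair also had r = 0.967 within the 8 OSKM libraries and 0.902 within the 8 2iL libraries. Prdm14 and Nr5a2, which lie on chr1, had r = 0.983 over all 16 libraries, with 0.609 and 0.766 within OSKM and 2iL. Utf1 tracked Dppa2 within each medium (r = 0.872 and 0.867) but not over both (r = -0.05).

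**Figure D4:**
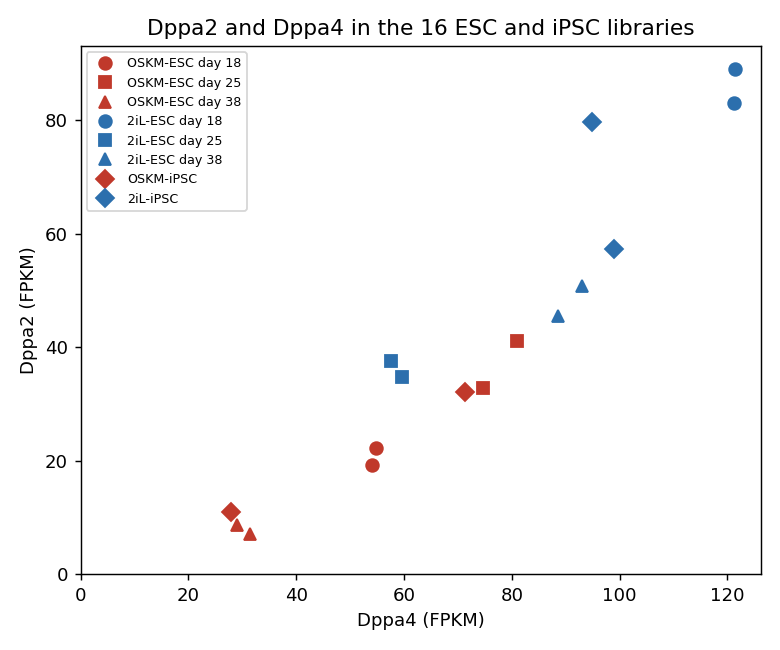
Dppa2 (vertical axis, FPKM) against Dppa4 (horizontal axis, FPKM) in the 16 ESC and iPSC libraries, one point per library, red for OSKM and blue for 2iL, with symbols for day or cell type. OSKM-ESCs of day 38 and OSKM-iPSC clone 1 lie lowest, 2iL-ESCs of day 18 lie highest, and the day 25 cultures of both media lie between them.

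Other genes most alike in pattern over these 16 libraries, given as a description, were Dusp27 (r = 0.952) and Platr7 (0.952) for Dppa2, and Smim40 (0.953) and Akr1b8 (0.945) for Dppa4. Cep70 (0.952), 1700001L05Rik (0.951) and Xlr3b (0.946) were nearest to Dppa3. Ooep, another gene of the KH-domain family, was nearest to Dppa5a (0.990), followed by Mcf2 (0.984) and Slc25a12 (0.980). H2-M6-ps (0.995), Jam2 (0.991) and Crxos (0.991) were nearest to Prdm14, and Pip5k1b (0.986), Prdm14 itself and Hesx1 (0.978) to Nr5a2. For Utf1 the nearest were Bysl (0.936), Ctbp2 (0.925) and Fam171b (0.898), for Sall4 Recql4 (0.948), Safb2 (0.924) and Nelfa (0.913), and for Prdm1 Tube1 (0.843), Smarcd2 (0.842) and Zfp157 (0.823).

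Lists of genes around each factor were counted in the same fits. Over all genes tested, 24.4% were lower and 29.5% higher in OSKM-ESCs, and 2.96% were lower and 5.0% higher in OSKM-iPSCs. Of 12 genes that DPPA2 and DPPA4 are known to activate, 7 passed the filter on low values in ESCs. For 6 of these, all Zscan4 genes, no OSKM library was above 1 FPKM in ESCs or iPSCs, so they entered through the 2iL libraries alone, their direction was fixed, and they are given as values. Zscan4c, a marker of the 2-cell-like state, had a mean of 0.0992 FPKM in OSKM-ESCs and 5.48 in 2iL-ESCs, Zscan4f 0.117 and 5.52, and Zscan4a 0.0664 and 4.37. In OSKM-iPSCs and 2iL-iPSCs Zscan4c had 0.108 and 15.7 FPKM. The Zscan4 genes are near-identical copies, so their single values are uncertain. Syce1, which encodes a protein of the synaptonemal complex and is the other gene, was above 1 FPKM in libraries of both media. It was lower in OSKM-ESCs (log2 fold change -1.91 ± 0.19, SE, limma adjusted p = 5.3e-06), and in OSKM-iPSCs its value of -2.08 did not pass (adjusted p = 0.0603).

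Around DPPA3, 4 of the 5 genes of maintenance methylation and oxidation were lower in OSKM-ESCs, with a list median of -0.67. Among them were the dioxygenase genes Tet2 (log2 fold change -1.18, limma adjusted p = 3.6e-06) and Tet1 (-0.69, adjusted p = 0.00066). The other, Tet3, entered through its OSKM-ESC libraries alone, which fixed its direction, and its log2 fold change of 1.44 is given as a value. In OSKM-iPSCs only Tet2 of the 5 passed (-1.53, adjusted p = 0.017; list median -0.67).

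Around PRDM14 and PRDM1, 6 of 7 germ cell partners and genes were lower in OSKM-ESCs and 1, Dnd1, was higher (0.49), with a median of -0.96. One of the 6, Nanos3, entered through its 2iL-ESC libraries alone, which fixed its direction, so it adds nothing to the count. Dazl, an RNA-binding protein of germ cells, changed by -2.81 (means of 0.426 and 8.93 FPKM and 1.004 in its highest OSKM-ESC library, adjusted p = 3.0e-09), Kit, the receptor for stem cell factor, by -2.58 (adjusted p = 1.2e-07) and Tfap2c by -0.98 (adjusted p = 8.1e-05). In OSKM-iPSCs 2 of the 6 that passed the filter were lower and none higher (median -0.41). Of 5 genes that PRDM14 is known to repress, 4 were higher in OSKM-ESCs (median 1.30). The FGF receptor gene Fgfr2 changed by 1.94 (adjusted p = 1.0e-06), and the de novo methyltransferase genes Dnmt3b and Dnmt3a by 1.37 (adjusted p = 0.0029) and 1.30 (adjusted p = 0.0004). The other, Dnmt3l, a cofactor of these enzymes, had -1.24 (adjusted p = 0.064). In OSKM-iPSCs 1 of the 5 was higher, Fgfr2, at 2.52 (adjusted p = 0.015; list median 0.72). Of 13 other PRDM genes, 8 passed the filter, 1 was higher in OSKM-ESCs (Prdm11, 1.10) and 3 were lower, among them Prdm16 (-0.51) and Prdm2 (-0.32), with a median of -0.28. These counts lie near the 29.5% and 24.4% of all genes, and Prdm11 and Prdm16 entered through 1 medium alone, which fixed their direction. In the iPSCs 0 of 8 passed the limma test, and 0 had an unadjusted p under 0.05. Prdm11 and Prdm16 had values of 0.58 and -0.90 there (adjusted p = 0.25 and 0.21).

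Around NR5A2, 3 of the 4 relatives and partners that passed the filter (of 6) were lower in OSKM-ESCs, with a median of -2.25. Nanog changed by -2.70, the nuclear receptor gene Esrrb by -2.51 and Nr0b1, which encodes a corepressor of nuclear receptors, by -1.99 (limma adjusted p = 2.5e-07, 3.4e-07 and 1.7e-09). The same number was lower in OSKM-iPSCs (median -2.40), with Nr0b1 at -3.35. Among 7 genes with OCT4 and SOX2 enhancers, a group that Utf1 belongs to by what is known of it, 5 were lower and 1, Lefty1, an inhibitor of Nodal signaling, was higher (2.29), with a median of -1.59. Nanog, Fbxo15 (-2.39) and Zfp42 (-2.35) changed most, so Utf1 went the other way from most of this list. In OSKM-iPSCs 3 of the 7 were lower and 1 higher (median -1.48). Nanog and Pou5f1 belong to both of these lists, and with Esrrb, Sox2 and Zfp42 they are also the pluripotency markers above. The counts are therefore not separate results, and reads of the transgene may count for Pou5f1 and Sox2 here too.

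Around UTF1, 4 of 6 partners and PRC2 genes were lower in OSKM-ESCs and none was higher (median -0.60). Cdkn2a changed by -0.90 (adjusted p = 0.0017), and the PRC2 subunit genes Eed and Suz12 by -0.85 (adjusted p = 2.1e-07) and -0.81 (adjusted p = 0.00013). In OSKM-iPSCs Cdkn2a was higher (1.25, adjusted p = 0.037), Eed was lower (-1.25, adjusted p = 0.02) and the median was -0.07. Cdkn2a is also expressed in MEF cells (28.9 FPKM), as measured here. Around SALL4, 6 of 14 SALL family and NuRD genes were higher and 5 lower in OSKM-ESCs (median -0.08), not far from the 29.5% and 24.4% of all genes. Sall2 (1.74) and Sall3 (1.09) changed most, followed by the NuRD subunit gene Mta1 (0.70). In OSKM-iPSCs 2 of the 14 were higher and none lower (median 0.05), Sall2 at 1.27 (adjusted p = 0.044) and Mta1 at 0.97 (adjusted p = 0.027).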

How the data were processed

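RNA-Seq was measured in 18 libraries. RNA was isolated with TRIzol, and the authors ran STAR 2.7.1a against GRCm38, kept uniquely mapped reads and quantified genes with StringTie 2.0. Their Cuffdiff 2.2.1 step needs reads and was not used here. The deposited FPKM values are StringTie's and were used as they stand. The deposited TPM values, usable in 16 libraries and recomputed from FPKM in 2, served as an alternative. The deposited coverage is a signal, the mean per base, and its ratio to FPKM in single-exon genes gave aligned bases, and read pairs at 300 bases a pair. Of 55471 gene identifiers, 2 with a failed value in a library were left out, and repeated identifiers were summed.

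limma 3.58.1 with trend (R 4.3.3) compared log2(FPKM + 1) between groups. Genes entered a comparison if any of its libraries had an FPKM over 1. Each fit held only the 2 groups compared, plus a term for day when the days were joined. Such fold changes understate those of low genes. Benjamini-Hochberg adjusted p-values covered every gene of a fit, and 0.05 was the threshold. Days and the interaction of medium and day were F tests, and the permutation test was exact, 2-sided and within days (216 arrangements). The difference in effect between iPSCs and ESCs was tested in 1 fit. The code was tested on simulated data. Promoters came from RefSeq and positions from the files. Python 3.11.15 was used for the remaining steps.

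All 9 genes were named, as were up to 3 called genes of each list with the largest change over all days and the 3 genes most alike to each gene. Dnd1, Lefty1 and Dnmt3l, and values of named genes in iPSCs, were added after their values were seen. The genes and lists were chosen with earlier results of these data known. The alternatives were a pseudocount of 0.1, no filter (genes above 0) or a filter met in 2 libraries, median-ratio scaling, TPM, quantile normalization, limma without trend, all 9 conditions in a single fit, no day term, a replicate block, and leaving out each library. A rule of over 2-fold was added after the data were seen.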

Additional observations from a re-analysis of the deposited data

Results flagged for a closer look

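The difference between OSKM-ESCs and 2iL-ESCs changed with the day (limma F test of the interaction) for Dppa4 (adjusted p = 4.1e-06), Dppa2 (3.2e-05), Dppa5a (0.00022), Prdm1 (0.0034), Utf1 (0.0053), Prdm14 (0.0095) and Sall4 (0.031). With all 9 conditions in a single fit those of Dppa5a (0.237) and Prdm14 (0.124) were lost, and those of Prdm14 and Sall4 were also lost without single libraries. The 2iL-ESC controls of Dppa2, Dppa4, Dppa5a, Prdm1, Prdm14 and Utf1 also differed between days. Of these, Dppa5a (adjusted p = 0.654) and Utf1 (0.507) did not pass with all 9 conditions in a single fit. Prdm1 did not pass with no filter on low values (0.055) or with quantile normalization (0.0615), nor did Utf1 with the latter (0.0626). The difference between media was not the same in iPSCs as in ESCs for Dppa3 (by 1.72 on the log2 scale), Nr5a2 (by -0.83) and Sall4 (by -0.794), in a design where each iPSC medium had 2 clones and differed in passage. Strain also differed between iPSCs and ESCs and cannot be told apart from cell type.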

How the results depend on the processing

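Of 710 alternative values for single genes, other than those that leave out a library, 670 kept their direction and their side of the threshold, 32 were no longer past it, 6 newly passed and 2 turned, both of Prdm1 with quantile normalization (-0.0844 at day 38 and -0.0198 in iPSCs). In iPSCs, limma called 0 of the genes with no filter on low values (5 at an unadjusted p under 0.05) and 6 with all 9 conditions in a single fit. That fit called 4 genes between days in 2iL-ESCs. Outside that fit, the rule of over 2-fold kept 1 gene, Dppa3, of the 3 whose effect of medium differed between iPSCs and ESCs. The cause of these shifts in count was not tested. The Dppa4 call over all days was lost with no filter (adjusted p = 0.0627).

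Leaving out 1 library, the calls numbered 6 to 7 over all days and at days 18 and 38, 5 to 7 at day 25, for the interaction and for days in 2iL-ESCs, 4 to 6 for days in OSKM-ESCs, 0 to 6 in iPSCs, 0 to 8 in OSKM-iPSCs against MEF cells, and 3 to 6 for iPSCs against ESCs. The lone library left was assumed to vary like the others. Against MEF cells, all 8 genes tested in OSKM-iPSCs were called higher with every library kept. Each was under 1 FPKM in the MEF libraries and entered through the iPSC clones alone, which fixed its direction. The count of 0 to 8 therefore says nothing about these genes. Log2 fold changes that turned ran from -0.131 to 0.183 (Dppa2, day 25), -0.579 to 0.416 (Dppa3, iPSCs) and -0.0391 to 0.373 (Prdm1, iPSCs). For iPSCs minus ESCs they ran from -1.03 to 0.432 (Dppa2), -0.998 to 0.328 (Dppa4) and -0.388 to 1.30 (Dppa5a).

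The deviations of same-numbered cultures correlated at 0.131, 0.0904 and 0.012 at days 18, 25 and 38, so the numbers were not taken as pairs. With a replicate block, 6 genes were called over all days, where Dppa4 had an adjusted p of 0.0599 (log2 fold change -0.76), 8 at day 18, 7 at day 25, 7 at day 38 and 7 for the interaction. Depth leaves Prdm14 in OSKM cells at about 19 to 44 read pairs a library.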
